A study of Homo sapiens with 10 samples.

Results

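The genes examined were 9 feedback inhibitors of NF-κB signalling: NFKBIA, NFKBIB, NFKBIE, NFKBIZ, BCL3, TNFAIP3, TNIP1, TNIP2 and CYLD. They were chosen for their known function from 19970 protein-coding genes, with earlier results of these data known. H3K27ac is the acetylation of histone H3 at lysine 27 that marks active promoters and enhancers, and each gene was followed through the H3K27ac peaks that overlapped its GENCODE gene body plus 50 kb on each side. The study asked how TWEAK, the ligand of the receptor Fn14, alters H3K27ac in breast cancer cells, and its 8 peak lists came from the HER2 lines SKBR3 and MDA-MB-453, established human breast cancer cell lines. Each line gave 2 lists from untreated cells and 2 from cells given TWEAK at 10 ng/ml for 48 h, replenished at 24 h. Untreated and TWEAK-treated cells were both starved for 8 h, the latter before TWEAK was added. The labels name no genetic change in either line.

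NF-κB dimers are kept inactive by IκB proteins, which hide their nuclear localisation signals until IκB kinase marks them for degradation. Once in the nucleus, NF-κB switches on genes for its own inhibitors, so the pathway is self-limiting, and the A20 complex and CYLD act further upstream by removing the ubiquitin chains on which the kinase is assembled. TWEAK binds Fn14, which signals to the alternative branch of this pathway and, in some cells, to the canonical branch.

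The lists held 43684 to 51687 peaks in SKBR3 and 36148 to 37813 in MDA-MB-453, covering 92.1 to 106 Mb and 70.5 to 72.1 Mb. The longest was SKBR3 TWEAK replicate 2. Read counts were not used, so sequencing depth is unknown. Of 7 markers of HER2 and luminal epithelial cells, 6 had a peak within 1 kb of the start site in all 4 SKBR3 lists and 7 in all 4 MDA-MB-453 lists, the exception being CDH1 in SKBR3. Of 6 markers of other cell types, 5 had no peak in any list and COL1A1 had one in all 8.

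All 9 genes had a peak at the start site in every list. To show what sequence lies under these peaks, the 300-base promoter windows of RefSeq (GRCh38.p14, 250 bases before to 50 after a start site) were searched on both strands for the 10-base NF-κB consensus. The table held 13 windows for 8 of the members, and NFKBIE was not among them. The consensus matched in 9 of the 13 windows and in 7 of the 8 genes, the exception being TNIP2, while 5.91% of all 35116 windows held a match. The AP-1 motif, written TGACTCA or TGAGTCA on the 2 strands, occurred in 0 of the 13 and in 4.95% of all windows. The 30 bases around each match follow, 5′ to 3′ on the strand of the gene, with the bases of the match in capitals:
NFKBIA at chr14:35404811-35404840, minus strand: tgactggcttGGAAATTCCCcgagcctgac
NFKBIB at chr19:38899932-38899961, plus strand: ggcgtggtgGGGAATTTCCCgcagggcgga
NFKBIZ, distal promoter, at chr3:101827757-101827786, plus strand: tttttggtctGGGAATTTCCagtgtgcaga
NFKBIZ, proximal promoter, at chr3:101849265-101849294, plus strand: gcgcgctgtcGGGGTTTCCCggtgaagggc
BCL3 at chr19:44748700-44748729, plus strand: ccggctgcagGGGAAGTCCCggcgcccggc
TNFAIP3 at chr6:137867188-137867217, plus strand: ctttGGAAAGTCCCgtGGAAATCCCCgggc
TNIP1 at chr5:151081057-151081086, minus strand: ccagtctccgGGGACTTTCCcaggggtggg
CYLD, first window, at chr16:50741887-50741916, plus strand: ttgacagagcGGAAAGTCCCttcggccggc
CYLD, second window, at chr16:50742405-50742434, plus strand: cccccccaccGGGGCTTCCCcatcccccga

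Counted from the first transcribed base as 0, the match began at -81 in NFKBIA, -28 in NFKBIB, -42 in TNIP1, -67 in TNFAIP3 and 2 in BCL3. TNFAIP3 held 2 matches separated by a pair of bases, and the match in NFKBIB read as the consensus in 2 overlapping registers. A match is a description of the letters and not of binding. Within the central 1000 bases of each peak region, the consensus occurred in 23.2% of the SKBR3 regions near the members and in 15.1% of all SKBR3 regions, against 30.4% and 12.7% in MDA-MB-453. The AP-1 motif occurred in 18 of the 82 SKBR3 regions and 9 of the 46 MDA-MB-453 regions near the members, and in 23.9% and 20.4% of all regions.

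Peaks of the 4 lists of a line that overlapped by at least 1 bp were merged into regions, and the strength of a region in a list was given as the percentile of its best peak when the list was ranked by the score of column 5, so that 100 is the strongest peak of that list. A region was called gained where it was present in the pair of TWEAK lists and absent from the untreated pair, and lost in the reverse case. By this measure the order of the start sites in SKBR3, as the mean of 4 lists, was BCL3 at 98.0 ± 0.383 (SD, n = 4), TNIP1 at 96.2 ± 1.89, NFKBIA at 92.2 ± 4.24, NFKBIZ at 89.0 ± 5.10, NFKBIB at 88.7 ± 3.55, TNFAIP3 at 80.8 ± 4.33, TNIP2 at 72.4 ± 5.45, CYLD at 64.9 ± 12.1 and NFKBIE at 62.3 ± 9.32. Each SD takes in untreated and TWEAK lists, so it includes any difference between them. BCL3 and TNIP1 stood above 94 in every SKBR3 list. From NFKBIA to NFKBIB, and again from TNIP2 to NFKBIE, the neighbours differed by less than the larger of their SDs. In MDA-MB-453 the order was BCL3 at 89.1 ± 4.31, NFKBIA at 83.5 ± 3.73, NFKBIB at 81.3 ± 1.94, NFKBIZ at 80.2 ± 1.93, TNIP1 at 74.7 ± 3.44, TNIP2 at 64.9 ± 5.41, TNFAIP3 at 48.2 ± 8.55, CYLD at 41.5 ± 15.2 and NFKBIE at 41.4 ± 17.5. From NFKBIA to NFKBIZ, and from TNFAIP3 to NFKBIE, neighbours in this line too differed by less than the larger of their SDs. BCL3 came first in both lines, and TNIP1 and TNFAIP3 stood lower in the order in MDA-MB-453.

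**Figure D1:**
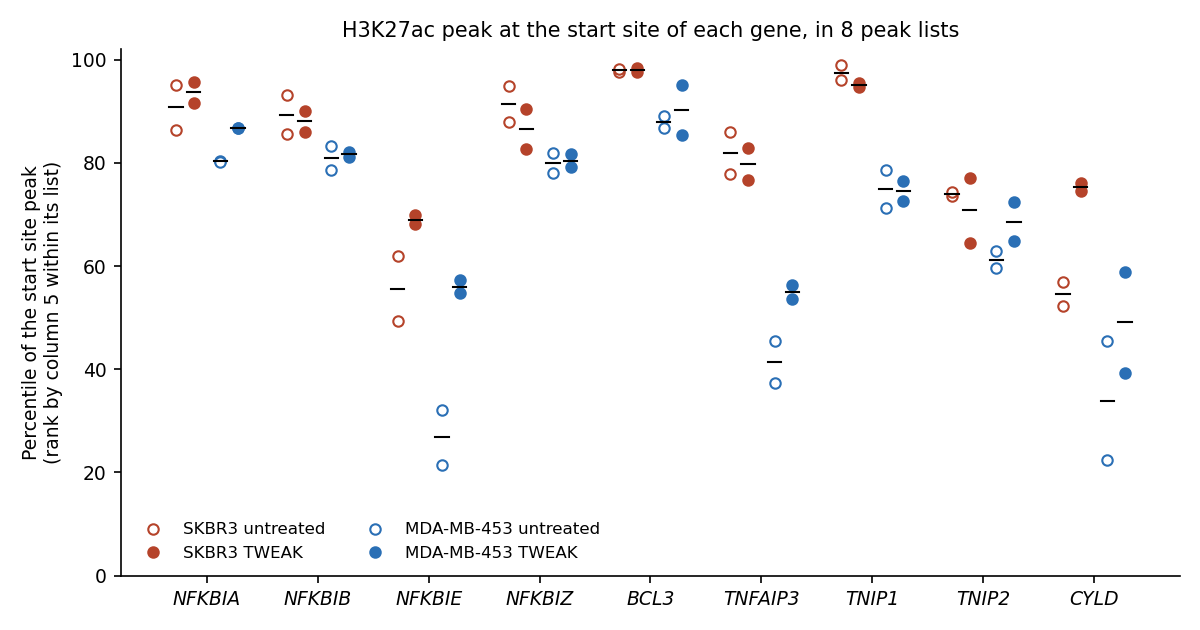
Percentile of the H3K27ac peak at the start site of the 9 genes (vertical axis, rank by column 5 within each list) in 8 lists. Open circles are untreated and filled circles TWEAK-treated libraries, red for SKBR3 and blue for MDA-MB-453, with a bar at the mean of 2. BCL3 is highest in both lines, and the blue points of TNFAIP3 lie between 37.4 and 56.3 while its red points lie between 76.7 and 85.9.

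NFKBIA, NFKBIB and NFKBIE encode the classical IκB proteins that hold NF-κB in the cytoplasm. NFKBIA, which encodes IκBα, the fastest resynthesised of them, lies at chr14:35401079-35404749 and was spanned by one wide start site region. In SKBR3 (chr14:35396073-35407912) it reached percentile 95.1 and 86.4 in the untreated lists and 95.7 and 91.7 with TWEAK. In MDA-MB-453 (chr14:35397078-35406037) it was at 80.3 and 80.2 untreated and at 86.7 and 86.7 with TWEAK. The groups overlapped in SKBR3 and did not in MDA-MB-453, where the difference was 0.26 ± 0.07 (SE) on the scale of normal scores to which ranks were converted for testing, with an adjusted p of 0.685 by limma over all 31162 regions held by the 4 lists.

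The region at NFKBIA was wide in every list, from 9120 to 11606 bp in SKBR3 and from 8246 to 8960 bp in MDA-MB-453. All 4 SKBR3 lists held further regions downstream of NFKBIA, at 11.0, 17.2, 34.0, 43.9 and 50.3 kb from its start site, and the one at 17.2 kb (chr14:35383288-35391759), outside protein-coding genes, was at 73.3, 74.9, 71.0 and 82.1 in untreated replicates 1 and 2 and TWEAK replicates 1 and 2. It was not called in any MDA-MB-453 list. The only region near a member that MDA-MB-453 lost with TWEAK lay in the same downstream stretch at 36.0 kb (chr14:35368191-35369210), where the untreated lists ranked it at 4.59 and 12.3, near the bottom. One SKBR3 region spans that place in all 4 lists.

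NFKBIB, which encodes IκBβ, had a narrow start site region of 1927 to 2558 bp over the 8 lists. Its percentiles were 93.0, 85.6, 90.0 and 86.0 in SKBR3 and 78.7, 83.2, 81.1 and 82.2 in MDA-MB-453, in the same order of libraries, and untreated and TWEAK values overlapped in both lines. SKBR3 gained a region within an intron of NFKBIB (chr19:38902817-38904529, 3.70 kb downstream of the start site) at percentile 6.38 and 5.41 in the TWEAK lists. It lost one of 456 bp in an intron of the neighbouring SIRT2 (chr19:38887587-38888042), at 35.7 and 4.26 in the untreated lists. With lists of equal size, the gained region was no longer called.

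NFKBIE, which encodes IκBε, had the lowest mean percentile at the start site over the 4 lists of each line, in MDA-MB-453 level with CYLD. In the untreated SKBR3 lists alone, CYLD was lower (54.5 against 55.6). In the MDA-MB-453 TWEAK lists alone, CYLD and TNFAIP3 were lower (49.1 and 55.0 against 56.0). In MDA-MB-453 (chr6:44264137-44265915, midpoint in a coding exon of NFKBIE) the percentiles were 21.5 and 32.1 untreated and 57.2 and 54.8 with TWEAK. In SKBR3 (chr6:44262162-44266345) they were 61.9 and 49.3 untreated and 68.1 and 69.9 with TWEAK. Both TWEAK lists stood above both untreated lists in each line, but neither difference passed the test, with 0.78 ± 0.14 (SE) and adjusted p = 0.583 in MDA-MB-453, and 0.35 ± 0.20 and adjusted p = 0.743 in SKBR3 by limma. With only peaks of −log10 q of at least 5 kept, the MDA-MB-453 region was called gained.

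The region at NFKBIE was 2846 and 2434 bp wide in untreated and 4184 and 3823 bp in TWEAK-treated SKBR3 cells. SKBR3 lost a region at the promoter of SLC29A1, a nucleoside transporter gene in the same window (chr6:44223358-44224417), that stood at 10.0 and 34.9 in the untreated lists. In MDA-MB-453 that promoter lay within a region held at 98.4, 98.6, 97.1 and 97.3.

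NFKBIZ and BCL3 encode the atypical, nuclear IκB proteins, which bind NF-κB on DNA and can act as coactivators. At NFKBIZ the start site region (chr3:101846865-101851687 in SKBR3) was at 94.8 and 88.0 untreated and 90.5 and 82.6 with TWEAK, with overlap. Its width, however, was 2639 and 2454 bp untreated and 4103 and 4805 bp with TWEAK, a log2 difference of 0.80 ± 0.19 (SE) with adjusted p = 0.524 by limma. In MDA-MB-453 the same region was at 82.0, 78.0, 81.6 and 79.1 and measured 2992 to 3442 bp, with overlap in both measures.

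The distal promoter of NFKBIZ, 21.8 kb upstream of the start site used here and within an untranslated exon of NXPE3, was also marked in all 8 lists. Its width in SKBR3 was 640 and 742 bp untreated and 1041 and 1284 bp with TWEAK, without overlap (adjusted p = 0.588), while its percentiles of 64.1, 49.3, 61.7 and 72.9 overlapped. The 2 regions that MDA-MB-453 lists alone held near any of the 9 genes were both in this window, at -57.0 kb and 16.5 kb from the NFKBIZ start site, at mean percentiles of 10.4 and 19.5.

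BCL3, which binds the p50 and p52 subunits, had the widest start site region of the 9. In SKBR3 it spanned the whole gene (chr19:44736238-44768550), covered 28564 and 23038 bp untreated and 29099 and 30833 bp with TWEAK, and ranked at 97.7, 98.2, 97.7 and 98.4. In MDA-MB-453 it was 10059 to 13111 bp long and ranked at 89.1, 86.7, 95.1 and 85.4. Neither line separated by treatment in rank at this region.

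SKBR3 gained a region 26.0 kb downstream of the BCL3 start site (chr19:44773783-44775625), outside protein-coding genes and nearest to the start site of CBLC, at 36.4 and 49.0 in the TWEAK lists. It lost one at -16.1 kb (chr19:44731926-44733379), at 16.6 and 4.26 in the untreated lists. The member region with the lowest p for rank in MDA-MB-453 also lay upstream of BCL3, at -13.6 kb (chr19:44734664-44735497), with percentiles of 17.4 and 12.3 untreated and 33.4 and 34.4 with TWEAK, a difference of 0.64 ± 0.10 (SE) and adjusted p = 0.583 by limma. This region was called in only 1 SKBR3 list, untreated replicate 2.

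TNFAIP3 encodes A20, the ubiquitin-editing enzyme that shuts down signalling from TNF-family receptors, and it is itself a classical NF-κB target. Its start site stood at 85.9 and 77.8 untreated and 82.9 and 76.7 with TWEAK in SKBR3 (chr6:137866537-137868278), and at 37.4 and 45.5 untreated and 53.7 and 56.3 with TWEAK in MDA-MB-453 (chr6:137866486-137867722). The groups overlapped in SKBR3 and did not in MDA-MB-453, where the difference was 0.34 ± 0.10 (SE; adjusted p = 0.700 by limma). The region was 1022 and 336 bp wide in untreated and 1742 and 1545 bp in TWEAK-treated SKBR3 cells.

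In SKBR3 the differences in rank at TNFAIP3 were larger away from the start site than at it. The start site region differed more in width, by 1.49 on the log2 scale against 0.59 at the intronic region. In MDA-MB-453 the largest difference in rank was at the start site. An intronic region 6.35 kb downstream (chr6:137871829-137875394) was at percentile 60.9 and 25.2 in untreated SKBR3 and at 81.3 and 86.4 with TWEAK, and no MDA-MB-453 list held it. The difference was 1.19 ± 0.34 (SE) with adjusted p = 0.470 by limma, and a larger difference was seen in 350 of the 30803 regions held by all 4 SKBR3 lists. Without untreated replicate 2, which ranked the region lowest, the difference was 0.72, and without any other library it was 1.09 to 1.66. A region at -18.0 kb (chr6:137848500-137850055) was absent from untreated replicate 1, at 18.8 in replicate 2 and at 44.4 and 60.1 with TWEAK. A further region was gained 59.8 kb downstream, beyond the gene (chr6:137926048-137928153), at 26.3 and 48.3 in the TWEAK lists.

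The intronic and the gained region both held the NF-κB consensus, and in the intronic region one match lay near TGAGTCA. In the gained region the match lay under the peak of TWEAK replicate 2 only. The peak of TWEAK replicate 1 there was chr6:137926345-137926868. These stretches are shown because they lie in the intronic region that ranked higher in both TWEAK lists and in the region that was gained, in hg38 on the plus strand with matches to both motifs in capitals:
TNFAIP3 intronic element, chr6:137874247-137874385: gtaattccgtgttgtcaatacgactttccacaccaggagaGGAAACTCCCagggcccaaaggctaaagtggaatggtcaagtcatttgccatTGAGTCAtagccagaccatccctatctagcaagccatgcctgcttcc
TNFAIP3 downstream element, chr6:137927822-137927911: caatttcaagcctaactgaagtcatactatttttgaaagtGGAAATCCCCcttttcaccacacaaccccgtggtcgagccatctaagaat

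**Figure D2:**
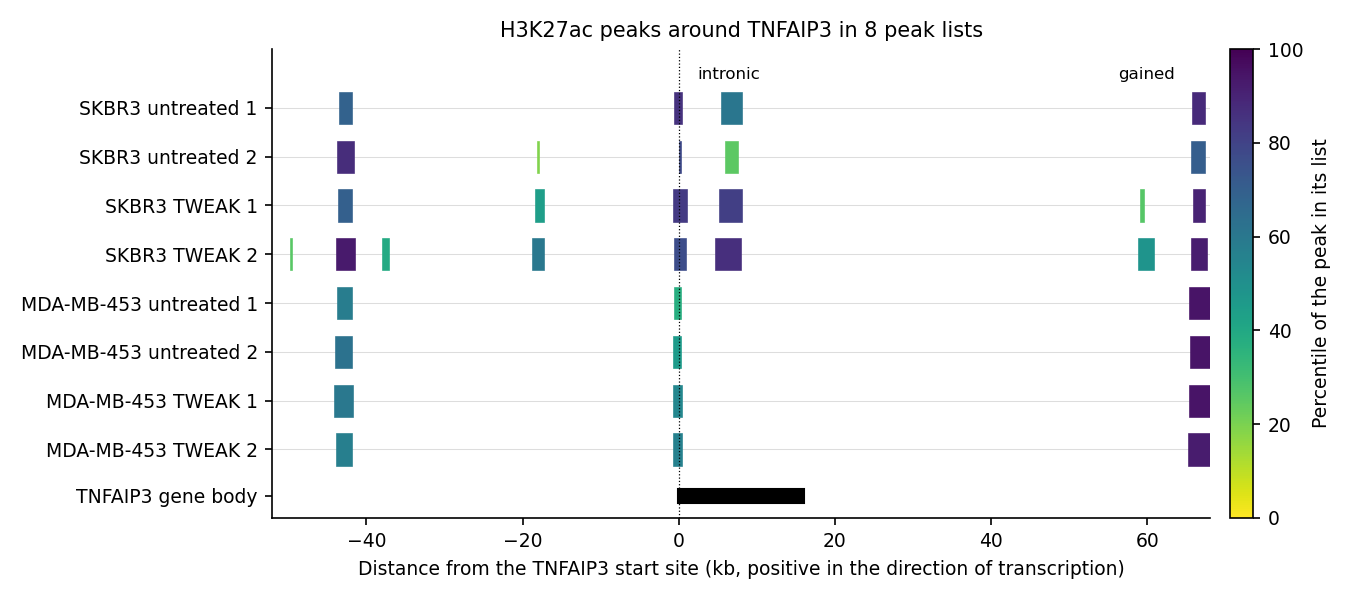
H3K27ac peaks around TNFAIP3 in the 8 lists (1 line of boxes per library), by distance from the start site in kb (horizontal axis), coloured by percentile within the list. The intronic box is at 60.9 and 25.2 in untreated and 81.3 and 86.4 in TWEAK-treated SKBR3 and missing from MDA-MB-453, and the gained box at 59.8 kb appears in the SKBR3 TWEAK lists alone.

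TNIP1 encodes ABIN-1, which brings A20 to its ubiquitinated targets. Its start site region in SKBR3 (chr5:151079482-151087468) was already near the top of the untreated lists, at 98.9 and 96.0, and stood at 94.6 and 95.4 with TWEAK. It was 3149 and 2738 bp wide untreated and 7987 and 7442 bp with TWEAK, 2.63 times as wide, the lowest p for width of any region near a member (log2 difference 1.39 ± 0.18 SE, adjusted p = 0.441 by limma). The rank was thus slightly lower with TWEAK while the width was larger, and neither passed the test. In MDA-MB-453 the region was at 71.2, 78.7, 76.4 and 72.5 and 2370, 1329, 2500 and 2650 bp wide.

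On the scale of normal scores, the largest difference in rank near any member was at a region 13.9 kb upstream of the TNIP1 start site (chr5:151092453-151097478). It stood at percentile 68.5 and 54.3 in untreated SKBR3 and at 96.5 and 97.2 with TWEAK, and it was 1461 and 1341 bp wide untreated and 3539 and 5026 bp wide with TWEAK, 3.01 times as wide. All 4 lists held it, the groups overlapped in neither measure, and it was absent from all 4 MDA-MB-453 lists. The difference in rank was 1.57 ± 0.21 (SE) with adjusted p = 0.370 by limma, and 30 of 30803 regions had a smaller p.

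Under the 9 alternatives the adjusted p of this region ranged from 0.208 to 0.652, so it did not pass the threshold of 0.05 in any of them. The region overlapped the upstream end of the annotated TNIP1 body (chr5:151029945-151093577), and its midpoint lay outside protein-coding genes. The region held 3 matches to the NF-κB consensus, 2 of them overlapping registers of the same stretch, and 4 AP-1 motifs. The 131 bases around the stretch with the 2 registers are shown because this region differed most, in hg38 on the plus strand with the match in capitals:
TNIP1 upstream element, chr5:151094176-151094306: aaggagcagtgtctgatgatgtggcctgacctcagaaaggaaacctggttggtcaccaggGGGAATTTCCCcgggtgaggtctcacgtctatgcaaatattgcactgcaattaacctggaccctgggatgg

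SKBR3 also gained a region 23.8 kb upstream of TNIP1, in an intron of ANXA6 (chr5:151104150-151105598), at 42.6 and 58.9 in the TWEAK lists. Within the gene, a region 9.24 kb downstream of the start site (chr5:151065392-151078205) was at 93.3 and 84.3 untreated and 93.7 and 89.5 with TWEAK in SKBR3 and in no MDA-MB-453 list.

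**Figure D3:**
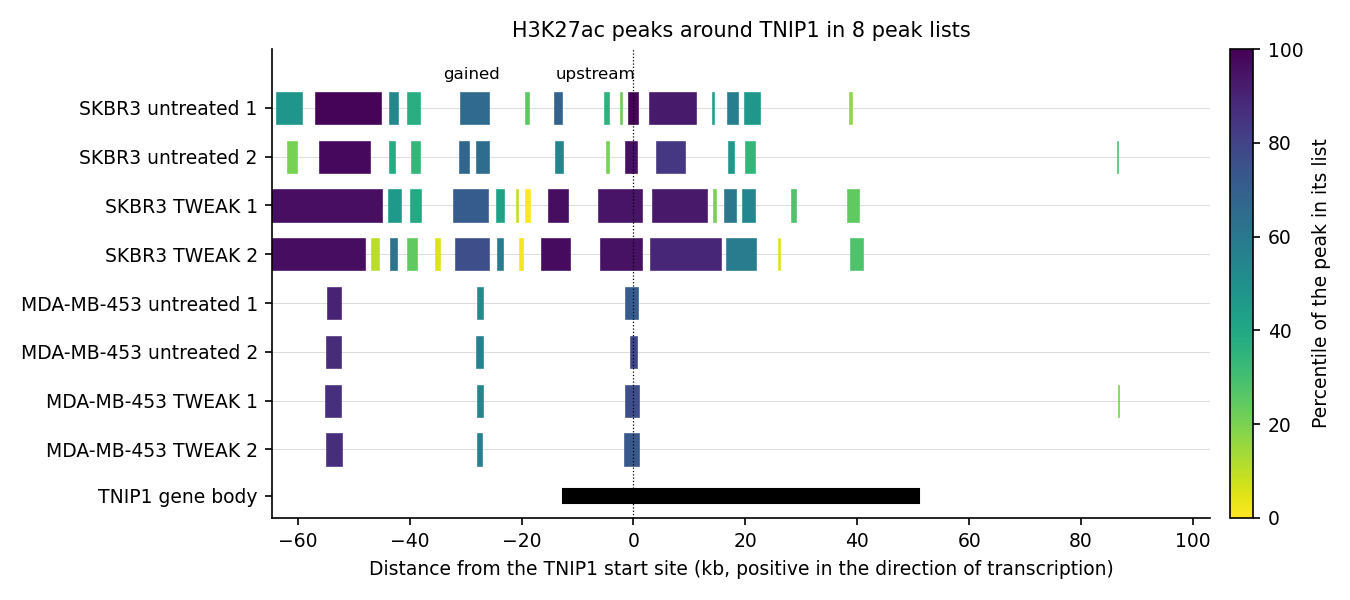
H3K27ac peaks around TNIP1 in the 8 lists (1 line of boxes per library), by distance from the start site in kb (horizontal axis), coloured by percentile within the list. The box marked upstream is at 68.5 and 54.3 in untreated and 96.5 and 97.2 in TWEAK-treated SKBR3, and the MDA-MB-453 lists hold 3 or 4 peaks where the SKBR3 lists hold 13 to 15.

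TNIP2, which encodes ABIN-2, a related A20-binding protein, had its start site at 73.5, 74.4, 77.1 and 64.5 in SKBR3 and at 59.5, 63.0, 64.8 and 72.3 in MDA-MB-453. TWEAK lists stood above untreated lists in MDA-MB-453 (0.20 ± 0.11 SE, adjusted p = 0.789 by limma) and overlapped in SKBR3. An intronic region 11.3 kb downstream (chr4:2741355-2748754) was at 71.9 and 69.5 untreated and 86.6 and 90.1 with TWEAK in SKBR3, a difference of 0.65 ± 0.19 (SE) with adjusted p = 0.470 by limma. It was not held by any MDA-MB-453 list. SKBR3 lost a region at -5.48 kb (chr4:2761351-2762272) that had stood at 6.94 and 31.7 in the untreated lists.

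CYLD encodes the deubiquitinase that removes linear and lysine 63-linked chains from the kinase scaffold. Its start site was at 56.8 and 52.2 untreated and 76.0 and 74.5 with TWEAK in SKBR3, without overlap, a difference of 0.57 ± 0.18 (SE) with adjusted p = 0.509 by limma. In MDA-MB-453 it was at 22.3 and 45.5 untreated and 39.4 and 58.9 with TWEAK, where the groups overlapped. The region was narrow in both lines, 1626 to 1908 bp and 1127 to 1637 bp. A pair of regions upstream, within the neighbouring NOD2 (at -44.9 and -22.3 kb), was held by the 4 SKBR3 lists and by no MDA-MB-453 list.

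Over the 9 windows, SKBR3 had 82 regions of 62104 in the genome, of which 45 were held by all 4 lists, 5 by 3, 9 by 2 and 23 by 1. In SKBR3, 4 of 82 regions were gained, 4.88% against a background of 4.61% of all regions, and 4 were lost, 4.88% against 1.40%. MDA-MB-453 had 46 regions of 42831, 34 of them held by all 4 lists, with 0 gained against a background of 1.33% and 1 lost, 2.17% against 1.30%. The gained share near the members in SKBR3 was thus close to that of the genome. The lost share rests on 4 regions, and none of the 4 was called with only peaks of −log10 q of at least 5 kept. None of the 4 gained regions was called gained under that threshold either.

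The calls of presence depend on single libraries. Without SKBR3 TWEAK replicate 1, 14 member regions were gained in SKBR3, 17.9% against 17.6% of all regions, and without TWEAK replicate 2, 11 were gained, 14.1% against 10.1%. Without SKBR3 untreated replicate 1, 8 were lost, 9.76% against 5.70%, and without untreated replicate 2, 7 were lost, 8.75% against 9.73%. The shares of all regions thus moved as well. Without MDA-MB-453 TWEAK replicate 1, 5 were gained there, 11.6% against 4.57%, and without TWEAK replicate 2, 3 were gained, 7.32% against 5.26%. Without either MDA-MB-453 untreated replicate 2 were lost, 4.35% against 5.51% and 3.85%. Of the 82 SKBR3 regions, 10 were held by TWEAK replicate 2 alone, the longest list. For 45 of the 82 regions in SKBR3 and 25 of the 46 in MDA-MB-453, the nearest protein-coding start site was that of the member itself. The remainder lay nearer to another gene, and the windows of NFKBIB and NFKBIE each overlapped 9 protein-coding genes.

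In rank, 0 of 45 member regions in SKBR3 and 0 of 34 in MDA-MB-453 passed an adjusted p of 0.05 by limma, against a background of 0% of 30803 and of 31162 regions. At an unadjusted p under 0.05 there were 4 higher and 1 lower with TWEAK in SKBR3 (1852 and 649 over all regions) and 5 higher and 2 lower in MDA-MB-453 (1105 and 1041). The TWEAK lists stood wholly above the untreated lists at 13 of the 45 SKBR3 regions, 28.9% against 20.9% of all, and wholly below at 4, 8.89% against 17.4%. In MDA-MB-453 these counts were 9 of 34, 26.5% against 20.6%, and 6, 17.6% against 17.9%.

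In width, again 0 regions near the members passed in either line by limma, against 0% of all, with 6 wider and 1 narrower in SKBR3 (1463 and 802 over all regions) and 4 wider and 1 narrower in MDA-MB-453 (892 and 932) at an unadjusted p under 0.05. Both TWEAK lists were wider than both untreated lists at 15 of 45 regions in SKBR3, 33.3% against 20.7% of all regions, and narrower at 3, 6.67% against 15.7%. In MDA-MB-453 they were wider at 15 of 34, 44.1% against 18.0%, and narrower at 4, 11.8% against 17.3%. The median log2 difference in width was 0.16 near the members and 0.02 over all regions in SKBR3, and 0.08 and 0.00 in MDA-MB-453.

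**Figure D4:**
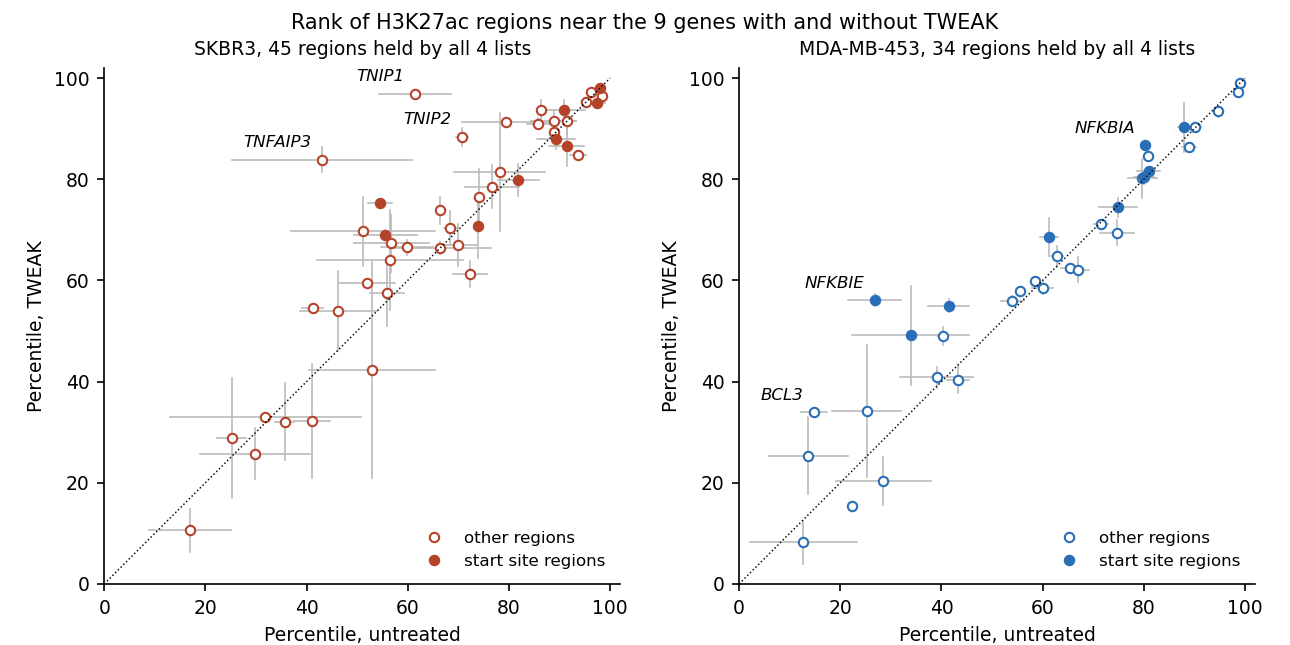
Mean percentile of each region near the 9 genes without TWEAK (horizontal axis) and with TWEAK (vertical axis), for regions held by all 4 lists of a line. Filled circles are start site regions, grey bars span the 2 replicates, and the 3 regions of lowest p are named. TNFAIP3 lies 40.8 percentile points above the diagonal in SKBR3 and TNIP1 35.5.

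The length of each window covered by peaks gave a measure that does not depend on where regions were merged. In SKBR3 the TNFAIP3 window was covered over 5.79 and 4.96 kb untreated and 8.54 and 12.8 kb with TWEAK. The log2 difference was 0.90 ± 0.19 (SE) on the scale of length plus 500 bp, with adjusted p = 0.0928 by limma over 18549 genes. The TNIP1 window was covered over 43.6 and 30.02 kb untreated and 60.05 and 61.1 kb with TWEAK, a difference of 0.73 ± 0.18 (adjusted p = 0.145).

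The NFKBIZ window was covered over 3.87 and 4.07 kb untreated and 5.40 and 8.88 kb with TWEAK in SKBR3, a difference of 0.74 ± 0.22 (adjusted p = 0.199). The groups did not overlap at any of these 3 genes. They did not overlap in SKBR3 at BCL3 either, with 61.9 and 56.4 kb untreated and 64.1 and 62.8 kb with TWEAK. At NFKBIE they did not overlap in the other direction, with 17.5 and 14.8 kb untreated and 13.9 and 13.9 kb with TWEAK. The share of all genes without overlap was not counted, so the lack of overlap was not read as a result about these genes. None of the 9 windows passed at 0.05 in SKBR3, where 1.46% of genes were higher and 0.253% lower, with 3 members, all higher, at an unadjusted p under 0.05. Over all 18549 genes, 1823 were higher and 807 lower at that unadjusted p. None passed in MDA-MB-453 either, where 0% of genes were higher and 0.0162% lower and 1 member, NFKBIE, had an unadjusted p under 0.05, with 18.7 and 19.1 kb untreated and 22.5 and 25.0 kb with TWEAK. Over all genes in MDA-MB-453, 201 were higher and 227 lower at that unadjusted p.

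The sizes and the calls at these windows turned on single libraries. Without SKBR3 TWEAK replicate 1, TNFAIP3 and NFKBIZ passed (1.18, adjusted p = 0.0122, and 1.07, adjusted p = 0.0121), and without SKBR3 untreated replicate 1, TNIP1 passed (1.00, adjusted p = 0.0415). Without SKBR3 TWEAK replicate 2 the differences at TNFAIP3 and NFKBIZ were 0.63 (adjusted p = 0.127) and 0.40 (adjusted p = 0.228), and without SKBR3 untreated replicate 2 that at TNIP1 was 0.47 (adjusted p = 0.177). A difference between the lines in the effect of TWEAK was tested as an interaction, and 0 of 9 windows passed by limma (0.431% of genes higher and 0.0108% lower), with 3 members at an unadjusted p under 0.05. Of these 3, 2 were higher and 1 lower, and over all 18549 genes 1079 were higher and 496 lower. The same test in rank, over 27 member regions held by all 8 lists, also passed 0, against 0% of 17704 regions, with 3 at an unadjusted p under 0.05. Of these, 2 were higher and 1 lower, against 748 and 575 of all regions.

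Between the lines the windows differed more. In SKBR3 the TNIP2 window was covered over 20.3 ± 1.87 kb (SD, n = 4) and in MDA-MB-453 over 2.15 ± 0.286 kb, and the TNIP1 window over 48.7 ± 14.8 and 6.16 ± 0.688 kb. By limma these were 2.97 ± 0.09 and 2.84 ± 0.13 (SE) higher in SKBR3 on the log2 scale, with adjusted p of 1.36e-06 and 5.05e-06. CYLD (1.56 ± 0.10), NFKBIA (1.43 ± 0.09), BCL3 (1.11 ± 0.08), TNFAIP3 (0.85 ± 0.14) and NFKBIB (0.80 ± 0.14) were also higher in SKBR3 by limma, with adjusted p from 1.87e-05 to 0.00182.

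NFKBIE and NFKBIZ went the other way. The NFKBIE window was covered over 15.0 ± 1.70 kb in SKBR3 and 21.3 ± 2.96 kb in MDA-MB-453, a log2 difference of -0.49 ± 0.09 (SE, adjusted p = 0.00201). NFKBIZ had 5.55 ± 2.32 and 9.02 ± 0.504 kb, a difference of -0.72 ± 0.15 (adjusted p = 0.00490), and there the highest SKBR3 list, TWEAK replicate 2 with 8.88 kb, overlapped the MDA-MB-453 lists. So 7 of 9 were higher and 2 lower in SKBR3, 77.8% and 22.2%, against 46.3% and 26.8% of all genes, and the median log2 difference over all genes was 0.24. Copy number of these windows was not measured here, and its part in the difference between the lines was not tested.

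**Figure D5:**
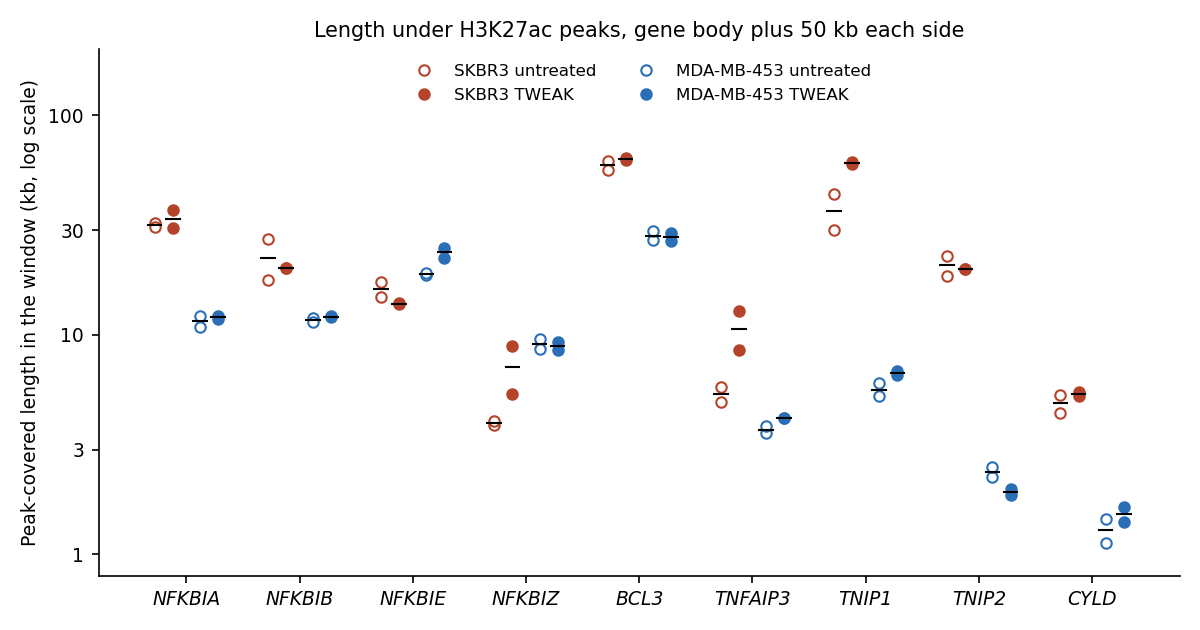
Length of each gene window (gene body plus 50 kb each side) under H3K27ac peaks, in kb on a log axis, for 8 lists. Open circles are untreated and filled circles TWEAK-treated libraries, with a bar at the mean of 2. The red SKBR3 points lie farthest above the blue MDA-MB-453 points at TNIP1 and TNIP2, and they lie below the blue points at NFKBIE.

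When the 8 lists were merged together, 84 of 76044 regions lay near the members. SKBR3 lists alone, all 4 of them, held 16, which is 19.0% against 14.1% of all regions, and MDA-MB-453 lists alone held 2, which is 2.38% against 10.5%. The 16 were 5 at TNIP1, 3 each at NFKBIA and NFKBIB, 2 each at TNIP2 and CYLD and 1 at TNFAIP3. Those with a mean percentile above 75 were the TNIP1 regions at 9.24 kb (90.2) and -13.9 kb (79.2), the TNIP2 regions at 11.3 kb (79.5) and at -41.2 kb in an intron of SH3BP2 (77.6), and the NFKBIA region at 17.2 kb (75.3). With only peaks of −log10 q of at least 5 kept, SKBR3 alone held 6, 13.6% against 11.0% of all regions, and MDA-MB-453 alone held 1, 2.27% against 14.6%, so that over all regions the larger share was then that of MDA-MB-453.

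In rank at the 27 member regions held by all 8 lists, 17 were higher in SKBR3, 63.0% against 37.9% of 17704 regions, and 2 were lower, 7.41% against 27.5% (limma, adjusted p under 0.05). At the start sites the normal scores differed by 1.16 ± 0.13 (SE) at TNIP1 and 0.93 ± 0.11 at TNFAIP3, with adjusted p of 0.000251 and 0.000256, followed by BCL3 (0.79), CYLD (0.63), NFKBIE (0.56), NFKBIA (0.48), NFKBIZ (0.41) and NFKBIB (0.34). TNIP2 did not pass (0.21 ± 0.11, adjusted p = 0.114). Some of these calls turned on single libraries. Without SKBR3 TWEAK replicate 1, or without any 1 of the 4 MDA-MB-453 libraries, NFKBIA, NFKBIB and NFKBIZ no longer passed (adjusted p from 0.0502 to 0.115), and NFKBIB and NFKBIZ did not pass without SKBR3 untreated replicate 1 either (0.0768 and 0.0700). Without SKBR3 TWEAK replicate 2, TNIP2 passed (0.31, adjusted p = 0.0217 by limma). The 2 regions that were lower in SKBR3 were the one 66.7 kb downstream of TNFAIP3, at a mean of 85.3 in SKBR3 and 94.1 in MDA-MB-453 (-0.46 ± 0.14, adjusted p = 0.0237), and the one at the HNRNPL promoter in the NFKBIB window (96.7 and 99.0).

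In width at these 27 regions, 13 were wider in SKBR3, 48.1% against 30.6% of all regions, and 3 were narrower, 11.1% against 29.6% (limma, adjusted p under 0.05). The interaction of line and TWEAK in width passed at 0 of 27, against 0% of all regions, with 2 higher and 5 lower at an unadjusted p under 0.05. Over all 17704 regions, 659 were higher and 581 lower at that unadjusted p. At the start sites, NFKBIE (1.95 on the log2 scale), TNIP2 (2.16), BCL3 (1.27), TNIP1 (1.15), CYLD (0.44) and NFKBIA (0.31) had wider regions in SKBR3, with adjusted p from 0.000449 to 0.0208. NFKBIB (-0.21), NFKBIZ (0.10) and TNFAIP3 (-0.14) did not pass.

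SKBR3 lists were longer, and a longer list places a shared region at a higher percentile. With every list kept to the length of the shortest and ranked again, an alternative added after the data were seen, 9 member regions were higher and 4 lower in SKBR3, 33.3% and 14.8% against 28.9% and 35.7% of 16006 regions, and the median over all regions moved from 0.08 to -0.08. BCL3, TNFAIP3, TNIP1 and NFKBIE remained past the threshold at their start sites, with 1.07 ± 0.13 (SE) at TNIP1 and 0.77 ± 0.12 at TNFAIP3. NFKBIA (0.36, adjusted p = 0.0679), NFKBIB (0.20, adjusted p = 0.195), NFKBIZ (0.28, adjusted p = 0.140) and CYLD (0.41, adjusted p = 0.0655) did not pass. Width and covered length were not compared between the lines with lists of equal size, so the part of list length in those differences was not tested.

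Other genes of the pathway were counted in the same way. For 5 genes of NF-κB subunits, 2 of 40 SKBR3 regions were gained and 0 lost, near REL and RELB, and 0 of 26 MDA-MB-453 regions were gained and 1 lost, near NFKB1. For 11 genes of kinases and adaptors, 3 of 69 were gained, near TRAF1, BIRC2 and TRAF3, and 1 lost, near TRAF3, in SKBR3, and 2 of 58 were gained, both near TRAF2, and 2 lost, near TRAF5 and IKBKG, in MDA-MB-453. For 12 further regulators, 4 of 121 were gained, near OTULIN and NFKBID and 2 near SPATA2, and 3 lost, near ZC3H12A, COMMD1 and PDLIM2, in SKBR3, with 0 of 62 in either direction in MDA-MB-453. For the 3 lists in turn, the SKBR3 shares were 5%, 4.35% and 3.31% gained and 0%, 1.45% and 2.48% lost. Over all SKBR3 regions they were 4.61% and 1.40%. The MDA-MB-453 shares were 0%, 3.45% and 0% gained and 3.85%, 3.45% and 0% lost, against 1.33% and 1.30% of all regions. No region of these lists passed in rank with TWEAK in either line by limma (0% of all regions). For the 3 lists in turn, 22, 37 and 63 regions were tested in rank in SKBR3 and 24, 48 and 50 in MDA-MB-453. At an unadjusted p under 0.05 by limma, 0, 3 and 2 were higher and 0, 1 and 2 lower in SKBR3. In MDA-MB-453, 4, 4 and 1 were higher and 0, 1 and 0 lower. Over all regions there were 1852 higher and 649 lower of 30803 in SKBR3, and 1105 and 1041 of 31162 in MDA-MB-453.

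In covered length, 0 of 5 subunit genes, 3 of 11 kinases and adaptors and 0 of 12 further regulators passed as higher with TWEAK in SKBR3 by limma, against 1.46% of all genes, and none of the 3 lists had a gene that passed as lower or that passed in MDA-MB-453. The 3 were BIRC2, BIRC3 and TRAF1, which encode ubiquitin ligases and an adaptor of TNF-family receptors, and BIRC3 was named after its values were seen. The BIRC2 window was covered over 7.03 and 5.997 kb untreated and 14.7 and 17.2 kb with TWEAK, a log2 difference of 1.23 ± 0.13 (SE, adjusted p = 0.0105 by limma). BIRC3, its neighbour on the chromosome with a window that overlaps it, had 6.62 and 5.45 kb untreated and 11.85 and 15.2 kb with TWEAK (1.10 ± 0.16, adjusted p = 0.0280), and TRAF1 had 2.65 and 2.70 kb untreated and 6.16 and 5.49 kb with TWEAK (0.99 ± 0.10, adjusted p = 0.00996). The peaks in the overlap are counted for both BIRC2 and BIRC3.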

How the data were processed

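H3K27ac ChIP-seq was analysed from 8 peak lists, 2 libraries for each of 4 groups. 2 input libraries had no list of their own and entered no comparison. The study trimmed reads, mapped them to hg38 with Bowtie2, called peaks with MACS2 against input and removed blacklisted regions, and the submitters' processing notes also name Trimmomatic and deepTools. MACS2 options are not given in the sources used here. Each list was deposited per library, with no pooling. The score deposited by the authors in column 5 is 10 times the −log10 q with decimals dropped. The authors also deposited a fold enrichment (a ratio to background), a −log10 p-value and a −log10 q-value, whose lowest value was 1.00. No coordinate ran past the ends of the reference chromosomes.

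The study compared H3K27ac with DiffBind, which needs reads, so presence, rank, width and covered length were compared instead. Chromosomes 1 to 22 and X were used. Overlapping peaks (1 bp) were merged, ranks became normal scores, and limma 3.58.1 (R 4.3.3) was fitted over all regions held by every list compared, or over 18549 genes with a peak in their window (log2 of bp plus 500), with Benjamini-Hochberg adjustment and two-sided tests. Widths were log2 bp. With 2 libraries per group p-values measure only the spread between these libraries. Read numbers are unknown, and counting intervals could not be given. Scripts were tested on simulated data. Start sites are GENCODE 44 canonical. Python 3.11.15, pandas 2.3.3, numpy 2.4.6 and scipy 1.17.1 were used.

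The members and lists were chosen with earlier results of these data known. Named regions were each start site, each region gained or lost, the 3 of lowest rank p per line where none passed, and line-specific regions with a mean percentile above 75. Other genes of the pathway were named where a region was gained or lost, and BIRC3 for its covered length. A few further regions near the members were described after their values were seen.

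Alternatives were a −log10 q of at least 5, lists of equal length, an overlap of 50%, merging across 1 kb, windows of 10 and 100 kb, ranks by fold enrichment or −log10 q, centred widths, pseudocounts of 100 and 2000 bp, genes with peaks in all 8 lists, the replicate block and leaving out each library.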

Additional observations from a re-analysis of the deposited data

How the results depend on the processing

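With only peaks of −log10 q of at least 5 kept, SKBR3 had 2 member regions gained and 0 lost (4.88% and 0%, against 5.56% and 0.691% of all regions), MDA-MB-453 had 1 gained and 0 lost (3.23% and 0%, against 1.15% and 1.26%), and 6 were SKBR3-specific and 1 MDA-MB-453-specific (13.6% and 2.27%, against 11.0% and 14.6%). The 2 gained in SKBR3 were not among the 4 gained with all peaks kept. They lay near NFKBIZ (chr3:101779146-101779555) and within TNIP1 (chr5:151059131-151064829). With all peaks kept, each lay inside a region held by all 4 SKBR3 lists. When a list had to cover 50% of a region, 7 were gained in SKBR3 (8.54% against 5.52%), 0 lost in MDA-MB-453 (0% against 2.05%) and 4 were MDA-MB-453-specific (4.76% against 11.9%). Shares of all regions do not depend on the window. Windows of 10 kb gave 1 gained and 1 lost in SKBR3 (3.33% each), 0 lost in MDA-MB-453, 7 SKBR3-specific (22.6%) and 1 MDA-MB-453-specific region (3.23%), and windows of 100 kb gave 6 MDA-MB-453-specific regions (4.69%). Fewer regions are tested in the narrower windows and under the stricter threshold, and the cause of the other moves was not tested.

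Leaving out 1 library at a time gave 5 to 14 gained and 4 to 8 lost in SKBR3, while the share of all regions moved to between 7.79% and 17.6% gained and between 3.30% and 9.73% lost. In MDA-MB-453 it gave 0 to 5 gained and 1 to 2 lost, with 2.79% to 5.26% and 2.79% to 5.51% of all regions. It gave 16 to 19 SKBR3-specific regions (14.4% to 16.8% of all) and 2 to 3 MDA-MB-453-specific regions (10.9% to 12.4% of all), 14 to 20 regions differing in rank between the lines, 9 windows differing in covered length between the lines in every case, and 0 to 2 windows changed with TWEAK. Counts of regions changed in rank or width with TWEAK, or with an interaction in rank, were 0 under each of these. Covered length was not tested with lists of equal size.

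Replicate numbers were shared across groups. Same-numbered libraries deviated together with r = 0.316 over regions in SKBR3 and -0.03 in MDA-MB-453, over 2 pairs each, and the labels give no shared batch, so the numbers were not taken to pair the libraries. With the replicate block, 0 member regions passed in rank or width in either line and 0 windows in covered length, with the lowest adjusted p at 0.280 in rank in SKBR3.

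Of the alternatives for single regions and windows, 301 kept both direction and side of the threshold, 21 kept the direction but no longer passed, 4 passed where the reported value had not, and no direction turned. The 21 were start site ranks between the lines, at NFKBIA, NFKBIB, NFKBIZ and CYLD. At 2 libraries per group and with peak lists in place of reads, differences in signal inside peaks could not be measured.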
